A study of Mus musculus with 6 samples.

Results

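The 9 genes described here are the IL-1 family ligands Il1a, Il1b, Il18 and Il33, the antagonist Il1rn, and the receptor chains Il1r1, Il1rap, Il1r2 and Il1rl1, among 22162 genes in the table. They were taken by name, and each name had 1 row. Mouse skin fibroblasts (MSFs) of the FVB/N strain were isolated by enzymatic digestion of dorsal skin and cultured at 3% oxygen. Per the methods, the MSF line came from 1 female FASST mouse, which carries a tamoxifen-dependent Cre driven by the pro-alpha 2(I) collagen promoter, active in cells of mesenchymal origin, and a p27Kip1 allele with a GFP reporter at ROSA26 that Cre switches on. Both groups were of this genotype. TAM cells, labelled senescent, received 10 µM tamoxifen, for 48 h per the methods, and EtOH cells, labelled non-senescent, received the ethanol vehicle (n = 3 libraries each). The age of the mouse and the time from treatment to harvest were not given in the sources used here. No library of TAM-treated cells without the p27Kip1 allele was part of the comparison, so effects of tamoxifen itself and of the allele cannot be told apart. The labels do not say whether replicates were separate cultures, and p-values measure the spread between these libraries of 1 line, which may be technical and does not cover differences between animals.

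IL-1α and IL-1β bind IL-1 receptor type 1 (Il1r1), which then recruits the accessory chain (Il1rap) and signals through MyD88 and IRAK kinases to NF-κB and MAP kinases. In fibroblasts, this pathway is known for inducing IL-6, chemokines and matrix metalloproteinases, and IL-1α is a known upstream signal of the senescence-associated secretory phenotype (SASP). The receptor antagonist (Il1rn) occupies the type 1 receptor without signalling, and the type 2 receptor (Il1r2) is a decoy that binds IL-1 without signalling. IL-33 uses Il1rl1, also called ST2, together with Il1rap, and IL-18 uses a separate receptor pair.

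The libraries summed to between 14952367 and 17314953 normalized counts. Low values of TAM replicate 2 stood apart, with 7 distinct values between 0 and 6 normalized counts against 82 to 448 in the other libraries. Cdkn1b, the mouse gene of p27Kip1, had 1427, 3074 and 1853 normalized counts in EtOH replicates 1, 2 and 3 and 1699, 1520 and 1630 in TAM, a log2 difference of -0.32 (SE 0.28, limma adjusted p = 0.677). Whether transcripts of the ROSA26 allele are counted on this gene is not given in the sources used here, so it does not check the labels. All 10 fibroblast markers reached 1 c.p.m. (16.2 normalized counts) in a library, and their sum was 1531767 to 1680762 in EtOH and 684994 to 1127539 in TAM. The collagens Col1a1, Col1a2 and Col3a1 made up 86.9% to 91.2% of this sum. The mean was lower in TAM for 8 of the 10 markers, among them Dcn (87407 in EtOH and 19909 in TAM), Lum (2419 and 510) and Fap (765 and 370). For 6 of the 10, values lay below every EtOH library, against 1359 of the 11877 genes tested. Of the 10 markers limma called 0, also with the block. The mean was higher in TAM for 2, Thy1 (1258 normalized counts in EtOH and 2911 in TAM) and Pdgfrb (6049 and 6369). Of macrophage markers, 5 of 12 reached this level, with sums of 217 to 557 and 398 to 575, Emr1 and Tyrobp were at 0 in every library, and the mean was higher in TAM for 8 of the 12. Of keratinocyte markers, 4 of 12 reached it, with sums of 82.9 to 96.6 and 77.6 to 289, Krt1 was at 0, and the mean was higher in TAM for 8 of the 12. Of mast cell markers, 1 of 10 reached it, with sums of 21.7 to 30.6 and 10.8 to 75.3, Cma1, Tpsb2 and Fcer1a were at 0, and the mean was higher in TAM for 5 of the 10. Endothelial markers (3 of 10) summed to 137 to 294 and 35.99 to 92.1, with Cldn5 at 0. Among them, Kdr had a mean of 130 in EtOH and 8.79 in TAM, and means were higher in TAM for 4 and lower for 5. Of the 2 endothelial markers tested, limma called 0, and with the block 1 lower, against 73 of the 11877 genes tested. Lymphocyte markers (0 of 10) summed to 6.52 to 23.3 and 10.8 to 20.7, with Cd3e and Cd3g at 0. In cultured populations, fewer cells of a type and less RNA per cell cannot be told apart.

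Promoter windows are shown for the 3 tested members with the largest log2 differences between TAM and EtOH, Il1rn, Il1rl1 and Il1r2, at the starts whose windows held a marked motif. The RefSeq table on GRCm38.p6 gave windows of 250 bases before to 50 after each start site for all 9 genes. The sequences are written on the gene strand, and capitals mark matches on either strand to an NF-κB motif, an AP-1 motif (TGANTCA), a STAT motif (TTCNNNGAA) or a GATA motif (AGATAA). Among all 32851 promoter windows, 4.51%, 7.81%, 8.30% and 11.2% held these motifs, and a looser C/EBP motif (TTNCNNAA), in 40.7% of windows, is not marked.
Il1rn, first of 3 starts, chr2:24336610-24336909, plus strand: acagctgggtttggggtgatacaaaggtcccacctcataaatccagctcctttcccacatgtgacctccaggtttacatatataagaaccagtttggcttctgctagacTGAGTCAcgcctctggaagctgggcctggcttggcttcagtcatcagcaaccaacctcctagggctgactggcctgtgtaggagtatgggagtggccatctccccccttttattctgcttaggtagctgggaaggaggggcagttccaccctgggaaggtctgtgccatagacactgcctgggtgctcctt
Il1r2, chr1:40085843-40086142, plus strand: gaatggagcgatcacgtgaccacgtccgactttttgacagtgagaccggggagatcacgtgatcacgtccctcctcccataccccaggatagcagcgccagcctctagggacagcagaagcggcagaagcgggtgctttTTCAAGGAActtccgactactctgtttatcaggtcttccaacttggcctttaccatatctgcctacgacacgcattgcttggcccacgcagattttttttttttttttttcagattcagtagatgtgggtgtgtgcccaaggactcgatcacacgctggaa
Il1rl1, first of 2 starts, chr1:40429320-40429619, plus strand: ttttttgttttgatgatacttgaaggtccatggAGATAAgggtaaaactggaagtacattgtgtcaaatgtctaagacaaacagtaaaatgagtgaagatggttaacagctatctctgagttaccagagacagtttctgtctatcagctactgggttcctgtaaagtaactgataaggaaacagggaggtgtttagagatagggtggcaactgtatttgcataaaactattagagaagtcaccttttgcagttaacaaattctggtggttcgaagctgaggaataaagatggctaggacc
Il1rl1, the second start, chr1:40439379-40439678, plus strand: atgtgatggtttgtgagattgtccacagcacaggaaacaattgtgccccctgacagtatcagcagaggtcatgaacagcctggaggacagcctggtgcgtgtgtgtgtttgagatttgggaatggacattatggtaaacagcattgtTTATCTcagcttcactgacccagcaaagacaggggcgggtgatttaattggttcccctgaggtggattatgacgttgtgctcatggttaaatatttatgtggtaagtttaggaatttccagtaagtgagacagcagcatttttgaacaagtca
The Il1rn window held an AP-1 match that began at position -141 from the start site, and the Il1r2 window a STAT match at -111. Each Il1rl1 window held a GATA match, at -217 and -103. Of the other members, a window of Il1r1 held an NF-κB match at -232 and that of Il1a an AP-1 match at -12, and the windows of Il1b, Il18, Il33 and Il1rap held no marked motif. None of the 4 windows shown above held the NF-κB letters, which says only that the letters are not in these windows. The matches describe the sequence and are not shown to be bound sites.

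Among the members, the antagonist and the receptors Il1rl1 and Il1r2 had higher values in every TAM library than in any EtOH library. The same held for the agonist ligand Il1a, at values near 0, whereas Il1b was at or near 0 in both groups and Il18 and Il33 overlapped between groups. Of the 9 members, 7 passed the filter of 1 c.p.m. in at least 3 libraries, and Il1a and Il1b did not. Without a block, limma called none of the 7 at an adjusted p under 0.05, against 0.168% of 11877 genes called higher. With the replicate number as a block, Il1rn alone was called higher, 1 of 7 against 1.0% of all genes. At an unadjusted p under 0.05 without the block, 3 of the 7 were higher (Il1rn, Il1rl1 and Il1r2) and 0 lower, against 6.67% of all genes higher and 6.7% lower. Among the tested members the groups did not overlap for the same 3, against 9.19% of all genes higher in TAM. Il1rn passed the filter through its TAM libraries alone, and Il1r2 reached 1 c.p.m. in 1 EtOH library, so these counts over the tested members are given as a description. The median log2 difference of the 7 was 0.41, and that of all genes tested was -0.03.

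**Figure D1:**
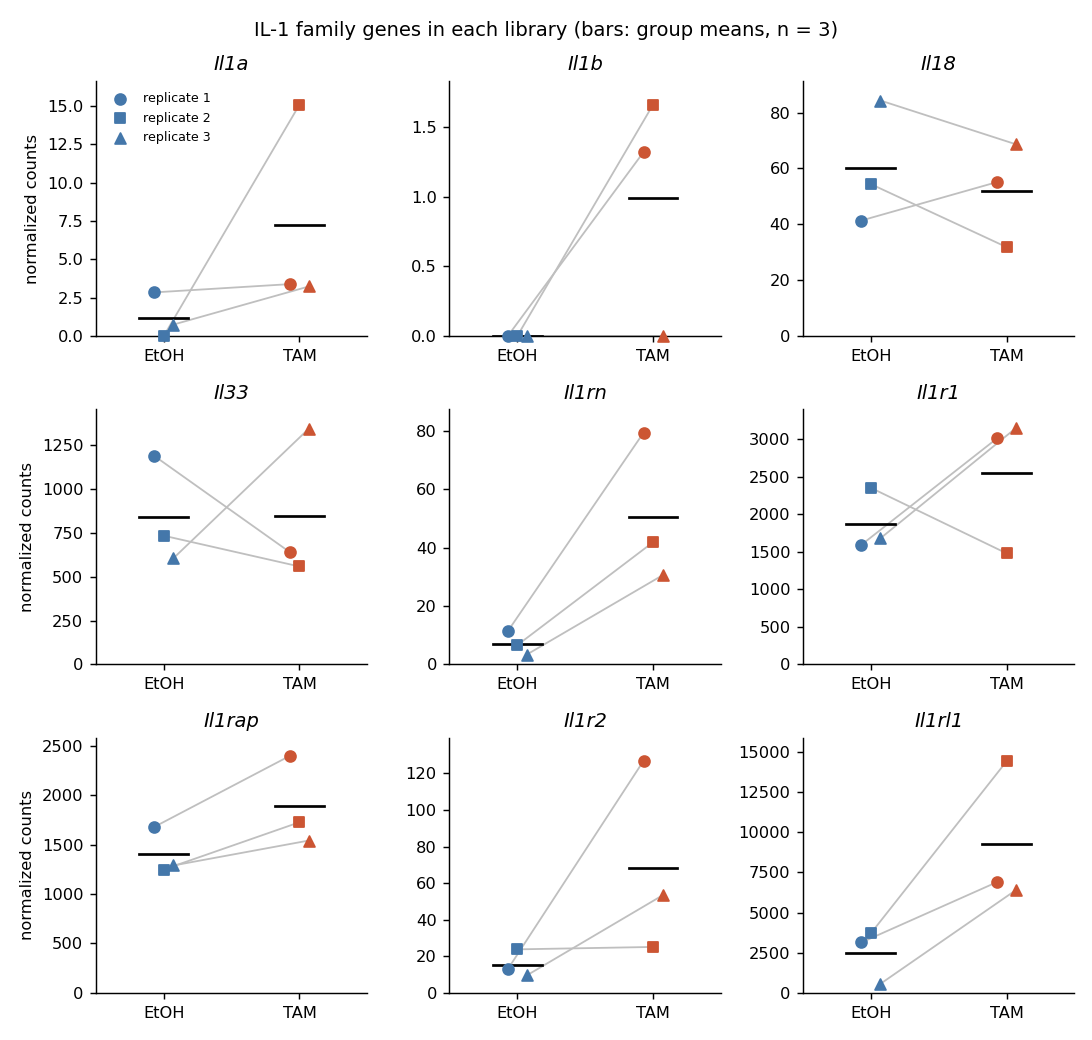
Normalized counts (vertical axes from 0, a scale for each gene) of the 9 IL-1 family genes in the EtOH and TAM libraries, with marker shapes and grey lines for the replicate number and black bars for means (n = 3). Every TAM value of Il1rn, Il1r2, Il1rl1 and Il1a lies above every EtOH value, by little for Il1r2 in replicate 2 and for Il1a in replicates 1 and 3.

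Il1rn, the receptor antagonist (chr2:24192373-24207014, plus strand, mm9), had 11.4, 6.61 and 3.39 normalized counts in EtOH replicates 1, 2 and 3 and 79.4, 41.9 and 30.6 in TAM. The lowest TAM library stood above the highest EtOH library. The mean was 7.14 ± 4.04 (SD, n = 3) in EtOH and 50.6 ± 25.6 (SD, n = 3) in TAM. On the log2(value + 1) scale, which understates changes of low genes, the difference was 2.68 (SE 0.58, 95% interval 1.31 to 4.05, limma adjusted p = 0.145). With the replicate block the SE was 0.37 and the limma adjusted p 0.0461, and the same-numbered libraries differed by 2.70, 2.49 and 2.85. Il1rn passed the threshold with the block and with the library weights added after the data were seen (limma adjusted p = 0.0469), not otherwise. Replicate 1 was the highest and replicate 3 the lowest in both groups. Macrophages and keratinocytes also make this antagonist. Of the macrophage markers, Lyz2 had 46.8, 35.3 and 62.9 normalized counts in EtOH and 103, 143 and 159 in TAM. In 4 of the 12, every TAM value was above every EtOH value, against 9.19% of all genes tested. Of these, Itgam and Mrc1 were under 1 c.p.m. in every library. The mean was higher in TAM for 8 of the 12. It was lower for Cd68 (167 in EtOH and 85.3 in TAM) and Aif1 (18.7 and 15.7). Ptprc, the leukocyte marker, had at most 5.01 normalized counts. Of the keratinocyte markers, Krt5 had a mean of 0.213 in EtOH and 7.96 in TAM, Dsp of 6.84 and 34.5, and Trp63 of 25.3 and 5.51, while Krt14 had at most 0.91. The part of other cells in the Il1rn values was not tested.

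Il1r2, the decoy receptor (chr1:40141613-40182064, plus strand, mm9), had 12.99, 23.8 and 9.58 normalized counts in EtOH and 127, 25.1 and 53.3 in TAM. TAM replicates 1 and 3 stood well above the EtOH libraries, whereas TAM replicate 2 was barely above EtOH replicate 2. The log2 difference was 1.88 (SE 0.65, 95% interval 0.35 to 3.40, limma adjusted p = 0.286), and the pairs differed by 3.19, 0.07 and 2.36. With limma's library weights the log2 difference was 2.25 (adjusted p = 0.0306). Without TAM replicate 1 it was 1.29.

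Il1rl1, the IL-33 receptor ST2 (chr1:40496621-40520164, plus strand, mm9), had the highest mean of the 9 per kb of exon in TAM. It had 3139, 3708 and 564 normalized counts in EtOH and 6895, 14409 and 6404 in TAM. EtOH replicate 3 was the lowest library and TAM replicate 2 the highest, and the groups did not overlap. The means were 2470 ± 1675 (SD, n = 3) and 9236 ± 4486 (SD, n = 3), and the log2 difference was 2.20 (SE 0.72, 95% interval 0.50 to 3.90, limma adjusted p = 0.268). With the block, the limma adjusted p was 0.108. Without EtOH replicate 3 the log2 difference was 1.33, so that 1 library sets much of its size. The table gives 1 value for the gene and does not separate the membrane receptor from the secreted form that Il1rl1 also encodes. Mast cells carry ST2, and of the 10 mast cell markers Cma1, Tpsb2 and Fcer1a were at 0 in all 6 libraries. Gata2, the 1 mast cell marker that reached 1 c.p.m., had 14.0, 26.8 and 15.9 normalized counts in EtOH and 4.90, 59.5 and 38.9 in TAM. Its highest value was in TAM replicate 2 and its lowest in TAM replicate 1. Ms4a2 had a mean of 2.46 in EtOH and 5.16 in TAM, and Hdc of 3.55 and 3.20. Kit had at most 1.60 normalized counts in any library and Cpa3 at most 0.97. Of the 10 markers, the mean was higher in TAM for 5 and lower for 2. The part of mast cells in the Il1rl1 values was not tested.

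Il1r1 and Il1rap differed less than Il1r2 and Il1rl1. Il1r1, the signalling IL-1 receptor (chr1:40281925-40373022, plus strand, mm9), had 1592, 2351 and 1679 normalized counts in EtOH and 3010, 1479 and 3148 in TAM. TAM replicates 1 and 3 were the highest libraries and TAM replicate 2 the lowest, so the groups overlapped. The log2 difference was 0.39 (SE 0.33, 95% interval -0.39 to 1.16, limma adjusted p = 0.658), and it was 0.83 with library weights (adjusted p = 0.0448). Il1rap, the accessory chain shared by the receptors of IL-1 and IL-33 (chr16:26581791-26717834, plus strand, mm9), had 1678, 1247 and 1288 normalized counts in EtOH and 2397, 1725 and 1540 in TAM. Each TAM library exceeded its same-numbered EtOH library, by 0.51, 0.47 and 0.26 on the log2 scale, although the groups overlapped. The log2 difference was 0.41 (SE 0.22, 95% interval -0.12 to 0.94, limma adjusted p = 0.487). RP24-345H5.2 on the opposite strand overlaps 4.86% of the exon bases of Il1rap.

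**Figure D2:**
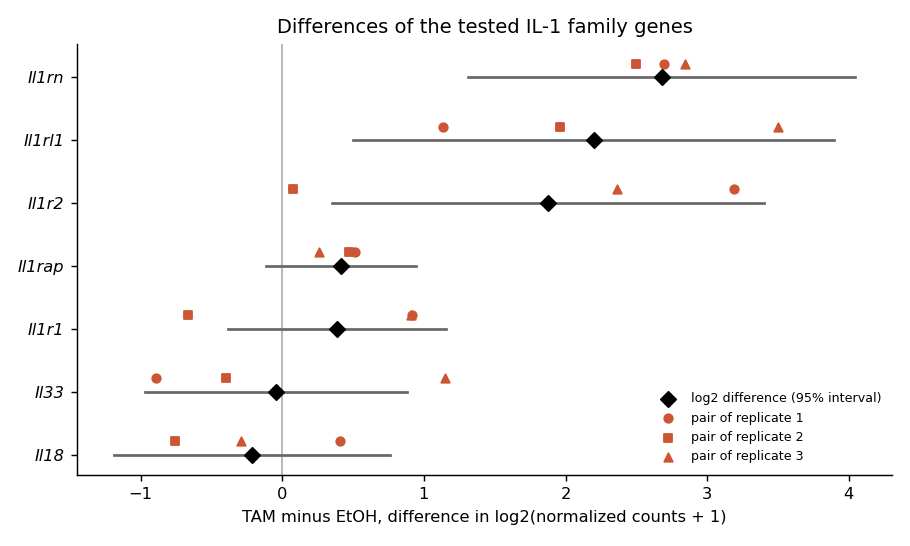
Differences in log2(normalized counts + 1), TAM minus EtOH, of the 7 tested members. Diamonds are limma estimates with 95% intervals (n = 3 against 3), and coloured symbols above them are same-numbered pairs of libraries. The pairs of Il1rn lie between 2.49 and 2.85, whereas those of Il1r2 spread from 0.07 to 3.19 and those of Il33 lie on both sides of 0.

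The ligands that start IL-1 signalling were the lowest of the 9 per kb of exon. Il1a (chr2:129125346-129135708, minus strand, mm9) had 2.84, 0 and 0.74 normalized counts in EtOH and 3.38, 15.1 and 3.23 in TAM. TAM replicate 2 held the highest value, and the other TAM libraries were within 1 normalized count of EtOH replicate 1. No library reached 1 c.p.m., and the exact permutation test gave p = 0.1 (two-sided), the smallest that 3 against 3 libraries allow. In the fit without the filter, the log2 difference was 1.83 (limma adjusted p = 0.332). Gm14023 on the opposite strand overlaps 11.2% of the exon bases of Il1a, and as the strand setting of the counting was not given, their reads cannot be told apart. Il1b (chr2:129190306-129196875, minus strand, mm9), which encodes IL-1β, was listed at 0 in the 3 EtOH libraries and at 1.32, 1.66 and 0 in TAM. Gm14047 on the opposite strand overlaps 1.31% of its exon bases. No fold is given for it, and a difference at this level was not detectable with these libraries.

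Il33 and Il18, ligands of the other receptors, were present in both groups. Il33 (chr19:29999604-30035194, plus strand, mm9), which encodes a nuclear cytokine released from damaged cells, had 1190, 735 and 605 normalized counts in EtOH and 640, 559 and 1346 in TAM. The groups overlapped and the pairs moved both ways, with a log2 difference of -0.04 (SE 0.39, 95% interval -0.97 to 0.88, limma adjusted p = 0.976). Il18 (chr9:50383378-50389942, plus strand, mm9), which is made as a precursor that caspase-1 cleaves, had 41.4, 54.4 and 84.3 normalized counts in EtOH and 55.1, 31.8 and 68.6 in TAM. Its groups overlapped too, with a log2 difference of -0.21 (SE 0.41, 95% interval -1.19 to 0.76, limma adjusted p = 0.868). These intervals are wide, so the values do not show that either gene was alike in both groups.

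Levels were compared between genes as normalized counts per kb of annotated exon. In EtOH, Il1r1 (371 ± 82.1, SD, n = 3), Il1rl1 (358 ± 243) and Il33 (294 ± 107) led, and neighbours in that order overlapped. They were followed by Il1rap at 124 ± 20.9 and Il18 at 85.5 ± 31.4, whose libraries also overlapped. Il1r2 at 11.6 ± 5.55 stood apart from Il18 above it and from Il1rn at 2.23 ± 1.26 below it. Il1a (0.605 ± 0.746) overlapped Il1rn and Il1b, which was at 0. In TAM, Il1rl1 at 1340 ± 651 per kb led, and its libraries stood apart from those of Il1r1 at 504 ± 183. Il33 (295 ± 151) overlapped Il1r1 and Il1rap (166 ± 39.7), and Il18 (73.9 ± 26.5) overlapped Il1r2 (51.2 ± 39.3), which overlapped Il1rn (15.8 ± 7.97). Il1a (3.66 ± 3.44) stood apart from Il1rn above it and from Il1b (0.521 ± 0.460) below it.

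**Figure D3:**
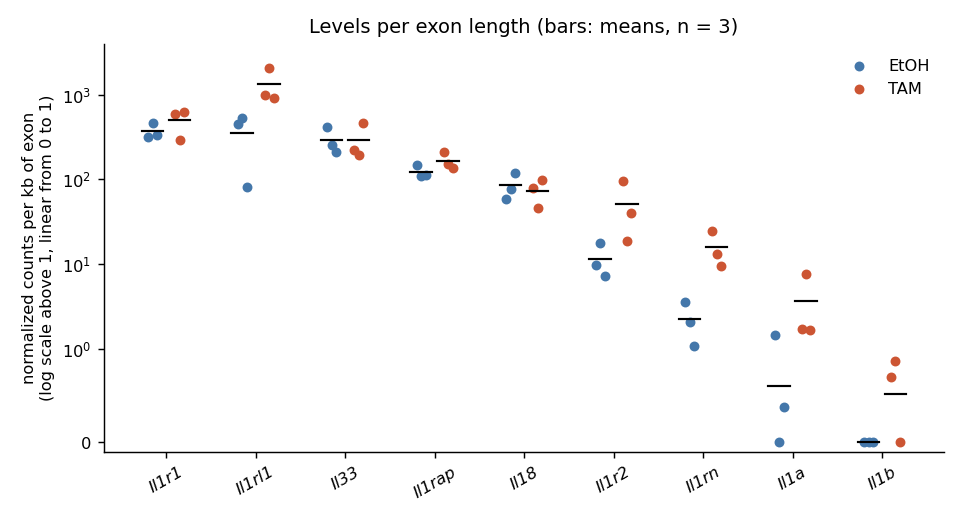
Normalized counts per kb of exon (log scale above 1, linear from 0 to 1) of the 9 members in each EtOH and TAM library, ordered by the EtOH mean, with bars for means (n = 3). Receptor chains and Il33 lie above 80 per kb in every library except for Il1r2, and Il1a and Il1b lie under 10.

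The genes whose log2 values were most like those of Il1rn over the 6 libraries were Nek6 (Pearson r = 0.994), Gpc1 (0.992), C1qtnf3 (0.991), H2afj (0.991) and Mark1 (0.991). These correlations share 2 groups of 3 libraries, and 264 tested genes had an r over 0.9, so they are a description only.

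Of the other ligands, receptors and inhibitors of the family, 4 of 12 passed the filter. Of these 4, limma called 0 in either direction, also with the block, where 0.168% and 1.0% of all genes were called higher. At an unadjusted p under 0.05, 0 of the 4 were called without the block, against 6.67% of all genes higher. With the block 1 was, Il18rap, higher in TAM, against 1026 of the 11877 genes tested. Their median log2 difference was 0.10. Il18rap, the accessory chain of the IL-18 receptor, differed most, with 5.94, 17.1 and 3.38 normalized counts in EtOH and 9.30, 267 and 29.2 in TAM. The difference of 2.41 (SE 1.19, limma adjusted p = 0.443) rested mostly on TAM replicate 2. Il1rl2, the IL-36 receptor, had the most negative log2 difference (-0.30, SE 0.35, limma adjusted p = 0.758).

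All 26 genes of the signalling list, adaptors and kinases downstream of the receptors, were tested. By limma 0 were called in either direction, also with the block, where 0.168% and 1.0% of all genes were called higher. With no adjustment of p, 2 were higher and 2 lower at the same threshold, against 6.67% and 6.7% of all genes, and the median log2 difference was -0.04. Ube2v1, a ubiquitin-conjugating enzyme variant that acts with TRAF6, had the largest difference (0.96, SE 0.47, limma adjusted p = 0.442). The table lists 2 rows of this name, of which the higher is given, and reads may have been split between them. Peli2, a Pellino ubiquitin ligase, had the most negative (-0.80, SE 0.27, limma adjusted p = 0.283).

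Of 15 genes of ligand processing and release, 11 were tested. By limma 0 were called, also with the block, where 0.168% and 1.0% of all genes were called higher. By unadjusted p 2 were higher and 3 lower, against 6.67% and 6.7% of all genes. The median was -0.18. Casp4, the caspase that senses cytosolic lipopolysaccharide (named caspase-11 in mice), had the largest difference, with 80.2, 567 and 79.6 normalized counts in EtOH and 445, 470 and 449 in TAM. EtOH replicate 2 was the highest of the 6 libraries, and the log2 difference was 1.56 (SE 0.72, limma adjusted p = 0.411). Without EtOH replicate 2, Casp4 was the 1 gene of the list that limma called. Capn1, a subunit of calpain, the protease that matures IL-1α, had the most negative (-0.90, SE 0.30, limma adjusted p = 0.268). Casp1, which matures IL-1β and IL-18, was chosen after its values were seen. It had 312, 257 and 284 normalized counts in EtOH and 632, 455 and 629 in TAM, without overlap, and a log2 difference of 0.99 (limma adjusted p = 0.128, blocked 0.0757). Among the 11 tested, groups did not overlap for 2 genes higher in TAM and 4 lower, against 1091 and 1359 of all 11877 genes. Pycard and Nlrp3, the inflammasome adaptor and sensor, were under 1 c.p.m. in every library.

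Among 30 genes known to respond to IL-1 in fibroblasts, 24 were tested and the median log2 difference was 2.17, against -0.03 over all genes. Many of these genes respond to other inflammatory signals as well, and the list was compiled with results of these data known, so it is no independent evidence of a direction. Without the block limma called 1 higher, Lcn2, and 0 lower, and with the block 9 higher and 0 lower, where 0.168% and 1.0% of all genes were called higher. The call of Lcn2 without the block was lost on leaving out any 1 EtOH library. On leaving out any 1 TAM library Lcn2 failed the filter and could not be tested. With no adjustment of p, 13 were higher and 1 lower at the same threshold, against 6.67% and 6.7% of all genes. Some of these genes, Lcn2 and Il6 among them, passed the filter through their TAM libraries alone. The counts and the median are therefore given as a description. Where every library had to reach 10, 17 of the genes were tested, Lcn2 not among them, and limma called 0. Lcn2, the siderophore-binding lipocalin, had 5.94, 8.52 and 2.50 normalized counts in EtOH and 110, 112 and 68.8 in TAM, a log2 difference of 3.96 (SE 0.50, limma adjusted p = 0.0427, blocked 0.0237). The acute-phase gene Saa3 differed most, with 38.0, 86.8 and 21.1 normalized counts in EtOH and 11472, 5533 and 938 in TAM. Its TAM libraries differed among themselves, but all stood above EtOH, by 6.53 on the log2 scale (SE 0.92, limma adjusted p = 0.0588, blocked 0.0212). The monocyte chemoattractant Ccl2 had 108, 383 and 57.4 normalized counts in EtOH and 2724, 8013 and 1198 in TAM, a log2 difference of 4.46 (limma adjusted p = 0.113, blocked 0.00438). In both groups replicate 2 of Ccl2 was the highest and replicate 3 the lowest. Ccl7, a related chemokine, differed by 2.35 (limma adjusted p = 0.0147 with the block, 0.131 without), the neutrophil chemoattractant Cxcl5 by 3.68 (0.0184 and 0.0628) and the stromelysin Mmp3 by 3.59 (0.0237 and 0.103). Tnfaip6, a hyaluronan-binding protein, had the most negative log2 difference (-0.85, SE 0.30, limma adjusted p = 0.292).

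**Figure D4:**
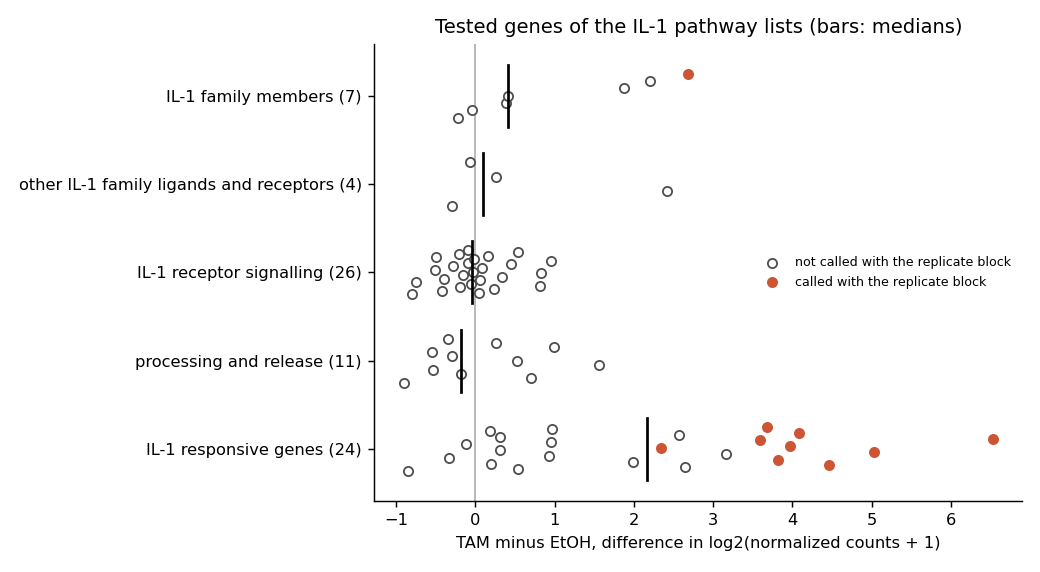
Differences in log2(normalized counts + 1), TAM minus EtOH, of each tested gene of the members and of 4 other lists, with the number tested in parentheses, bars for medians and filled points for genes called with the replicate block; vertical position within a list has no meaning. The medians are 0.41 for the members, 0.10, -0.04 and -0.18 for the next 3 lists and 2.17 for the responsive genes, 9 of which are filled.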

How the data were processed

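Poly(A) RNA of the 3 EtOH and 3 TAM libraries was sequenced. The authors mapped reads to mm9 with TopHat, counted per gene by htseq-count, and compared groups in edgeR after TMM scaling. Versions and strand setting were not given in the sources used here. The signal deposited by the authors is 1 table of normalized counts, which are not whole numbers and whose scaling is not stated, so no count test was run and counting errors are unknown.

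Differences were tested with limma 3.58.1 in R 4.3.3 with its trend option on log2 values after adding 1, for genes at 1 c.p.m. or more in at least 3 of 6 libraries, with 1 factor of 16.2 normalized counts per c.p.m. for all libraries, and Benjamini-Hochberg adjustment over 11877 genes. The precision is that of 3 libraries against 3. Same-numbered libraries deviated together (r = 0.24, 0.29 and 0.42, others -0.31 to 0.04), so a fit blocking on the number was also made. The pairing rests on the numbers and this check. Alternatives were 2 other scalings, other filters, pseudocounts of 0.1 and 10, the block and leaving out each library; library weights were added after the data were seen. The members and lists were chosen with earlier results of these data known. All members were named. In the other lists, called genes and genes whose call the block changed were named (up to 5 each, by adjusted p). So were the most positive and most negative differences, Cdkn1b and the 5 genes most correlated with the member of lowest p. Gene coordinates follow mm9, and promoter windows GRCm38.p6. Python 3.11.15, pandas 2.3.3 and matplotlib 3.10.9 were used for tables and figures.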

Additional observations from a re-analysis of the deposited data

How the results depend on the processing

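The count of genes called was 29 without the block, 192 with the replicate block, 17 without the filter, 18 where every library had to reach 10, 742 with library weights and 0 to 15 on omitting single libraries. The count of members called was 0, and it was 1 with the block (Il1rn) and 3 with library weights (Il1rn, Il1r1 and Il1r2). Among processing and release genes it was 0, and 0 to 1 when a library was left out (Casp4, without EtOH replicate 2). Among IL-1 responsive genes it was 1, and it was 9 with the block and 3 with each library scaled to the same sum. It was 0 without the filter and 0 with a pseudocount of 0.1. Where every library had to reach 10 it was 0, but Lcn2 could not be tested there. On omitting single libraries it was 0 to 2 (Cxcl5 and Saa3 were called without TAM replicate 3). Lcn2 was not called on omitting any 1 EtOH library, and failed the filter on omitting any 1 TAM library. The block changed no other call among the members.

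The log2 difference of Il18 (-0.21) reversed to 0.090 with library weights, 0.06 without EtOH replicate 3 and 0.10 without TAM replicate 2, and omitting single libraries gave -0.45 to 0.10. That of Il33 (-0.04) reversed to 0.067 with the same sum, 0.44 with library weights, 0.23 without EtOH replicate 1, 0.10 without TAM replicate 1 and 0.20 without TAM replicate 2, with a range of -0.43 to 0.23 on omitting single libraries. The cause was not tested. Scaling to the same sum moved the median of all genes from -0.03 to 0.08. Il1rn failed the filter without any 1 TAM library and where every library had to reach 10, and could not be tested there. Over its other 10 alternatives its adjusted p was 0.0461 to 0.386. Il1rn, Il1rl1, Il1r2, Il1r1 and Il1rap were higher in TAM under every alternative in which they could be tested. Values of a few normalized counts, as for Il1a and Il1b, limit what can be seen of those genes.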

Other observations

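Some genes near the family had 1 high library. Il1f10, a ligand of the family under the filter, had 30.5 normalized counts in TAM replicate 1 and at most 2.88 in the other 5 libraries. Il18rap had 267 in TAM replicate 2 and at most 29.2 elsewhere. In the same library, Ivl, a keratinocyte marker, had 153 normalized counts, against at most 1.85 in the EtOH libraries.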
